A study of Mus musculus with 4 samples.

Results

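The miR-467 and miR-669 microRNAs (miRNAs) of mouse embryonic stem (ES) cells were followed through the exit from the naive state. They were taken by name as every entry of the deposited table that begins mmu-miR-467 or mmu-miR-669 followed by a letter, a hyphen or the end of the name, on either arm of the hairpin. This gave 43 of the 1907 listed miRNAs, of which 13 were miR-467 and 30 were miR-669 names. Of these, 17 were 5p arms, 19 were 3p arms and 7 carried no arm in the name, and together they stood for 26 hairpin names. The rule reads the name and no level.

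Small RNA was sequenced from E14Tg2A cells, an ES line from the 129/Ola mouse strain, and from the epiblast-like aggregates (ELA) made from them. ES cells grew on gelatin in fetal calf serum with the cytokine LIF ("serum"), or had been moved for some passages to serum-free 2iL medium, which holds LIF with the MEK inhibitor PD0325901 and the GSK3 inhibitor CHIR99021. ELA were kept floating for 2 days in a minimal medium with N2/B27 supplements and without LIF, and are named after the medium of the ES cells they came from. The 4 groups (ES serum and ES 2iL, with the ELA of each) had 1 library each, in which the RNA of 3 experiments had been pooled. All libraries thus come from 1 line. Levels are given in RPM, the reads of a miRNA scaled to the same total of listed miRNA reads in every library, so they are shares of a library and not amounts per cell. Paired values give serum before 2iL. In such bulk RNA, fewer cells that express a miRNA and less of it in every cell cannot be told apart.

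miRNAs are cut from a hairpin precursor, and a hairpin can yield a mature miRNA from its 5p arm, its 3p arm or both. The mature strand is held by an Argonaute protein and finds its targets mainly through the seed, bases 2 to 8. miR-467 and miR-669 belong to a large rodent group of repeated hairpins, with miR-466 and miR-297, in an intron of Sfmbt2, a gene of a Polycomb group protein that is imprinted in the mouse and needed in the placental lineage. The group is known for its expression in ES cells and early embryos.

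The mm9 annotation (GENCODE) placed 44 of the 48 annotated miR-467 and miR-669 hairpins inside intron 10 of Sfmbt2, on the strand of the gene. They spanned 51.1 kb (chr2:10388856-10439906) of an intron of 62.5 kb (chr2:10383100-10445571), and none overlapped an exon of the gene. Most of the array was made of repeated copies. The annotation held 12 hairpins for miR-669a, 9 for miR-467a and 2 each for miR-669k, miR-669m and miR-669p, whereas the other 17 hairpin names in the intron (miR-669a-3 among them) had 1 each. Reads of near-identical copies were listed under 1 name, and the way reads with several matches were assigned was not stated. Levels of close relatives such as miR-467a and miR-467b are therefore uncertain relative to each other.

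The remaining 4 hairpins, miR-669n, miR-467g, miR-467h and miR-467f, were annotated on other chromosomes, and none of them had a read in any of the libraries. Their mature sequences are shown because they are the members outside the Sfmbt2 array, and because the RefSeq table of mature sequences used here (GRCm38.p6) held these 4 of the 43 members. Capitals mark the seed, and the 4 seeds are all different.
mmu-miR-669n (chr3:115979905-115979924, plus strand): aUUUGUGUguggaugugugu
mmu-miR-467g (chr5:34732872-34732892, minus strand): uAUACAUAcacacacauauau
mmu-miR-467h (chr9:115381898-115381919, plus strand): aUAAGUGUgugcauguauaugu
mmu-miR-467f (chr11:69635419-69635439, minus strand): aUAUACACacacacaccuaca
A count of 0 allows up to 3 reads, equal to 0.372 and 1.08 RPM in the ES libraries and to 0.696 and 5.11 RPM in the ELA libraries. Within the array, miR-669j and miR-669c-3p were also listed at 0 in every library.

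The ES libraries held 8056984 and 2767016 reads on listed miRNAs and the ELA libraries 4309257 and 587363, so ELA 2iL gave the least precise values. The naive and primed labels were checked with marker lists. The miR-290 to miR-295 cluster of naive ES cells took 8.61% and 18.3% of reads in ES cells and 5.55% and 14.1% in ELA. The miR-302 and miR-367 cluster of primed cells took 0.595% and 0.00784% in ES cells and 3.73% and 0.708% in ELA. Within a medium both clusters parted ES cells from ELA, but between media the naive cluster was higher in ELA 2iL than in ES serum, and the primed cluster was nearly as high in ES serum as in ELA 2iL. The summed markers of fibroblast feeders (4 of 4 detected) took 0.00717% and 0.00813% of reads in ES cells and 0.00318% and 0.00851% in ELA. They were thus lower in ELA in serum but not in 2iL. Those of neurons and neural progenitors (2 of 2) took 0.0262% to 0.0424% and those of blood (3 of 4) 0.000209% to 0.000851%. The liver marker had no read. The muscle markers (3 of 3) were higher in ELA in both media, with 0.00115% and 0% of reads in ES cells and 0.00485% and 0.00732% in ELA. The part of feeder, muscle or other such cells in the results below was not tested.

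Reads on the miR-467 and miR-669 members were fewer in ELA than in ES cells, from either medium. They took 0.287% of the ES serum library (Wilson 95% interval 0.283% to 0.291%) and 0.113% (0.110% to 0.116%) of the ELA serum library. In 2iL they took 0.493% (0.485% to 0.501%) of the ES library and 0.181% (0.171% to 0.193%) of the ELA library. The summed level was thus 2.54 times lower in ELA from serum cultures and 2.72 times lower in ELA from 2iL cultures, and both ELA libraries lay below both ES libraries. These intervals cover counting error only, and there is no replicate check within a group.

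The summed level of the 3p members showed the larger gap. Summed over 5p members, the level was 2355 and 3531 RPM in ES cells and 1049 and 1524 RPM in ELA, which is 2.25 times lower in ELA in serum and 2.32 times lower in 2iL. Summed over 3p members it was 515 and 1398 RPM in ES cells and 82.4 and 291.1 RPM in ELA, which is 6.25 and 4.80 times lower. On the log2 scale the exact 95% counting interval of the serum gap was -1.21 to -1.12 for the 5p sum and -2.80 to -2.49 for the 3p sum. In 2iL it was -1.31 to -1.11 and -2.49 to -2.04, so the intervals of the arms were apart in both media. The 3p sum rested mostly on miR-669a-3p and miR-467a-3p. In ES cells 3p members held 17.9% and 28.4% of member reads, miR-669a-3p 9.29% and 16.3% and miR-467a-3p 5.43% and 7.81%.

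**Figure D1:**
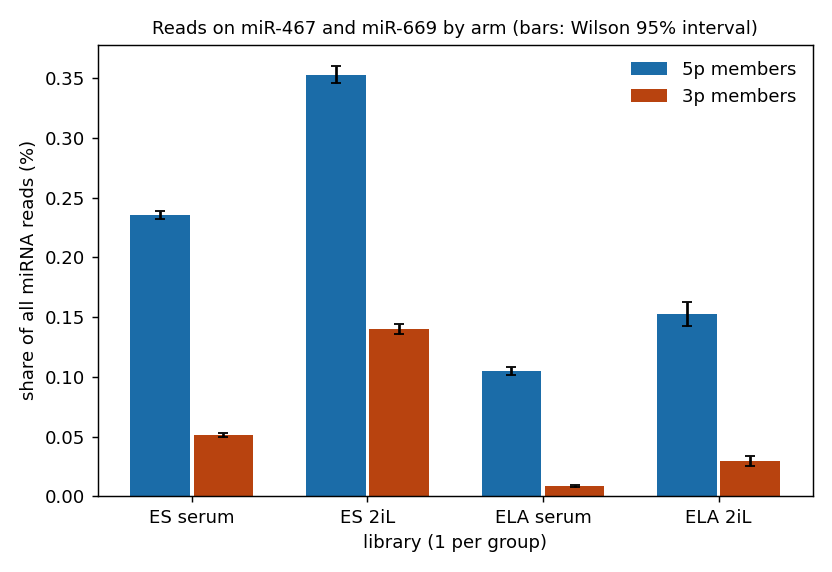
Share of all miRNA reads (%, vertical axis) on the 5p and 3p members in each of the 4 libraries, with Wilson 95% intervals as bars. The 3p share is 0.0515% in ES serum and 0.140% in ES 2iL against 0.00824% in ELA serum and 0.0291% in ELA 2iL.

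Few members carried most of the reads. A read was found for 37 of the 43, and 28 had reads in all 4 libraries. A minimum of 10 reads in no fewer than 2 libraries left 28 members (16 5p and 12 3p) for the test. Of those, 15 (13 5p and 2 3p) reached the level limit, log2(RPM + 1) averaging at least 5 over the libraries, equal to 31 RPM. Of the 28, 8 had 10 or more reads in the ES libraries alone (0 to 8 reads in either ELA library), so they entered the test through the group where they were high. All 8 were 3p arms below the level limit. The 15 members outside the test reached at most 1.81 RPM. The 4 most abundant members of each library took 55.5% and 52.2% of member reads in ES cells and 65.6% and 57.8% in ELA. miR-467a-5p led in 3 libraries with 18.9% (ES serum), 30.8% (ELA serum) and 20.8% (ELA 2iL) of member reads, while miR-669a-3p led in ES 2iL with 16.3%. The reads were spread as over 10.0 and 10.9 equally abundant members in ES cells (the inverse of the summed squared shares) and over 6.57 and 8.94 in ELA.

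All 15 members at this level were lower in ELA than in ES cells in serum, where 50% of all miRNAs past the level limit were lower, and all 15 were lower in 2iL too (56.3% of all). In both media together 39.1% of all were lower. A log2 difference of at least 1 was passed by 12 of the 15 in serum (15.6% of all), by 10 in 2iL (23.5%) and by 10 in both (8.94%). In 14 of the 15 both ELA libraries lay below both ES libraries, as in 19.9% of all miRNAs past the level limit. miR-669o-5p was the exception. Of the 15, 11 had at least 31 RPM also in both ELA libraries, and 8 of these in serum and 7 in 2iL passed the difference of 1, whereas the other 4 were under 31 RPM in an ELA library.

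With 1 library per group, a test across stages had to use the media as repeats. Fitted as stage plus medium (limma on log2(RPM + 1), 599 miRNAs, Benjamini-Hochberg adjusted), no member passed an adjusted p of 0.05 for stage (0% of the 599), and the smallest adjusted p was 0.133. The fit rests on 1 residual degree of freedom. At an unadjusted p of 0.05, 18 of 28 members were past the threshold, against 20.9% of the 599, a count that includes members which passed the read minimum through ES cells alone. On the recovered reads, edgeR called 4 members lower (2.17% of the 599 were called lower), or 0 (0%) with its option legacy = FALSE. DESeq2 called 6 lower (2.67%). With the same limma fit, TMM scaling gave 2 calls (4.67% of the 599 called), library totals without the 5 most abundant miRNAs 8 (11.7%) and DESeq2's size factors 10 (14.02%). Both count tools called miR-669a-3p, miR-467a-3p, miR-669o-3p and miR-467d-3p, and DESeq2 also called miR-467d-5p and miR-669c-5p. Of these, miR-467d-3p had passed the read minimum through ES cells alone, with 8 and 3 reads in ELA.

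The miR-467 5p arms included the most abundant member and members with very different gaps. miR-467a-5p stood at 541 and 689 RPM in ES cells (serum and 2iL) and at 349 and 378 RPM in ELA. It was lowest in both ELA libraries, yet only 1.55 times lower than in ES cells in serum and 1.82 times lower in 2iL (limma stage estimate -0.75 ± 0.44 SE, adjusted p = 0.359). miR-467b-5p, with 53.9 and 73.0 RPM in ES cells and 32.0 and 47.7 RPM in ELA, had the next smallest gap in serum, 1.68 times, and 1.53 times in 2iL. Neither passed the log2 difference of 1 in either medium.

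The other miR-467 5p arms had wider gaps. miR-467c-5p stood at 368 and 496 RPM in ES cells and at 115 and 158 RPM in ELA, 3.20 times lower in ELA in serum and 3.13 times in 2iL. miR-467d-5p stood at 215 and 370 RPM in ES cells and at 70.8 and 74.9 RPM in ELA, 3.04 and 4.94 times lower. miR-467e-5p stood at 121 and 258 RPM in ES cells and at 41.3 and 73.2 RPM in ELA, 2.93 and 3.53 times lower. In all of these the ELA libraries were clear of the ES libraries. The limma stage estimates were -1.66 ± 0.44 SE for miR-467c-5p, -1.94 ± 0.46 SE for miR-467d-5p and -1.67 ± 0.44 SE for miR-467e-5p, with adjusted p of 0.156, 0.144 and 0.156.

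Among the miR-669 5p arms, the most abundant member again had a small gap. miR-669a-5p stood at 417 and 588 RPM in ES cells and at 209 and 363 RPM in ELA, 2.00 times lower in ELA in serum and 1.62 times in 2iL. miR-669c-5p stood at 164 and 258 RPM in ES cells and at 40.4 and 69.8 RPM in ELA, 4.06 and 3.70 times lower, the widest gap in serum of the 13 5p members at this level. miR-669m-5p stood at 105 and 187 RPM in ES cells and at 39.5 and 64.7 RPM in ELA, 2.66 and 2.89 times lower. The limma stage estimates were -0.85 ± 0.44 SE for miR-669a-5p (adjusted p = 0.310), -1.93 ± 0.44 SE for miR-669c-5p (0.144) and -1.45 ± 0.44 SE for miR-669m-5p (0.183).

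The other miR-669 5p arms were less abundant. miR-669o-5p stood at 78.4 and 129 RPM in ES cells and at 29.9 and 83.4 RPM in ELA, so that ELA 2iL lay above ES serum. miR-669p-5p stood at 71.4 and 112 RPM in ES cells and at 31.8 and 69.8 RPM in ELA. Both were more than 2 times lower in ELA in serum (2.62 and 2.24 times) and less than 2 times lower in 2iL (1.55 and 1.60 times). Of the rest, miR-669l-5p stood at 56.0 and 77.0 RPM in ES cells and at 24.1 and 35.8 RPM in ELA. miR-669b-5p stood at 47.4 and 91.1 RPM in ES cells and at 20.2 and 35.8 RPM in ELA. miR-669d-5p stood at 45.8 and 90.3 RPM in ES cells and at 17.4 and 22.1 RPM in ELA. These last 3 were 2.32, 2.35 and 2.63 times lower in ELA in serum and 2.15, 2.55 and 4.08 times lower in 2iL.

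The abundant 3p arms had the widest gap in serum of the 15. miR-669a-3p stood at 267 and 802 RPM in ES cells and at 35.0 and 150 RPM in ELA, 7.61 times lower in ELA in serum and 5.35 times in 2iL. miR-467a-3p stood at 156 and 385 RPM in ES cells and at 32.5 and 88.5 RPM in ELA, 4.80 and 4.35 times lower. miR-669a-3p thus was the most abundant member in ES 2iL and lay under 3 of the 5p members in ELA 2iL. The limma stage estimates were -2.65 ± 0.45 SE for miR-669a-3p and -2.17 ± 0.44 SE for miR-467a-3p, both with an adjusted p of 0.133. By edgeR the adjusted p were 0.00684 and 0.0295, and by DESeq2 0.000205 and 0.00653.

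**Figure D2:**
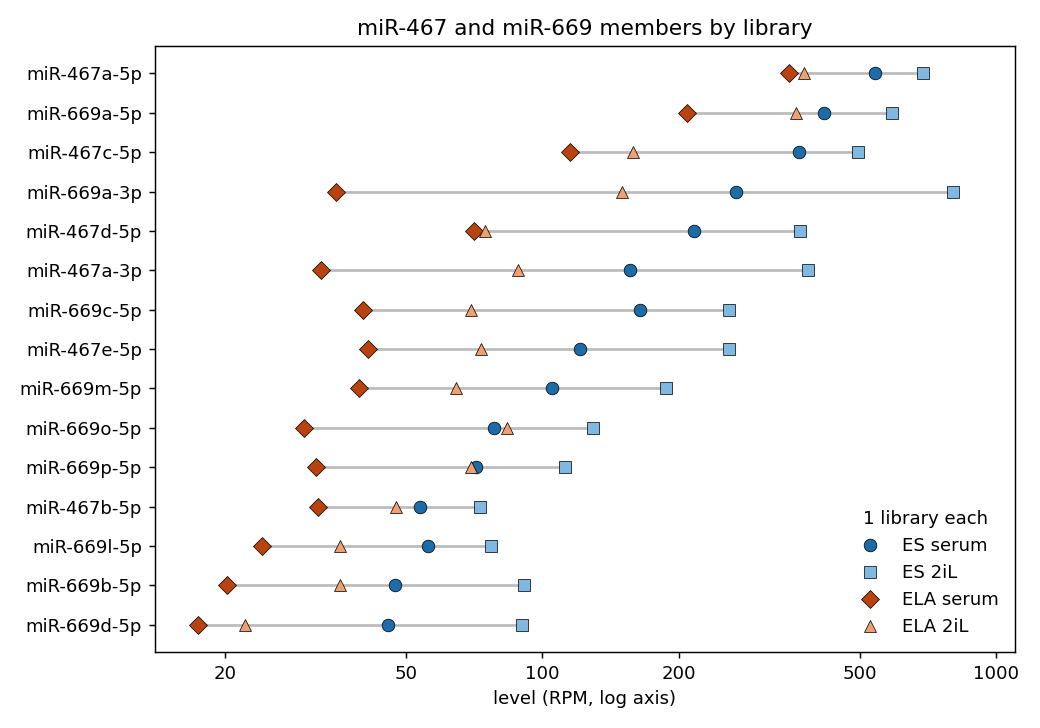
Level (RPM, log axis) of the 15 members past the level limit, with 1 point for each library. In 14 of the 15 both ELA points lie to the left of both ES points, and miR-669o-5p is the exception.

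Of the 13 tested members below this level, 10 were 3p arms. In ES cells they ranged from 1.86 to 33.6 RPM (serum) and from 4.70 to 68.3 RPM (2iL), and in ELA from 0.232 to 13.0 RPM and from 0 to 25.5 RPM. As 8 of the 13 had passed the read minimum through ES cells alone, their differences are not summarised. miR-669o-3p stood at 23.3 and 68.3 RPM in ES cells and at 3.02 and 15.3 RPM in ELA. miR-467d-3p stood at 16.5 and 39.4 RPM in ES cells and at 1.86 and 5.11 RPM in ELA. miR-669o-3p was thus 7.73 times lower in ELA in serum and 4.46 times lower in 2iL. miR-467d-3p is among those 8, so its gap is not compared with others. miR-669p-3p stood at 4.59 and 4.70 RPM in ES cells and at 0.696 and 5.11 RPM in ELA, where it held 3 reads in either library.

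The gaps were not even across members. Over the 15 members the median log2 difference was -1.36 in serum with an SD of 0.58, and -1.52 in 2iL with an SD of 0.64, against medians of 0.00 and -0.17 and SDs of 0.99 and 1.68 over all miRNAs past the level limit. The SDs within other clusters were 0.24 and 0.38 for miR-290 to miR-295, 0.33 and 0.53 for miR-302 and miR-367, and 0.71 and 0.37 for miR-466 and miR-297. Over the 13 5p members alone the SDs were 0.37 and 0.59. Single members went from -2.89 to -0.63 in serum and from -2.41 to -0.60 in 2iL. The serum and 2iL differences share no library, and across the 15 members their Pearson r was 0.80, as a description, against 0.69 over all past the limit. Over the 28 tested members, which include low 3p arms, r was 0.44. The median absolute difference between the media was 0.23 over the 15 and 0.45 over the 28, and the largest over the 28 was 1.93. Among the 15 the widest was 0.74, in miR-669o-5p, which was -1.36 in serum and -0.62 in 2iL. As members share hairpin sequence and locus, they are not repeats of one measurement.

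**Figure D3:**
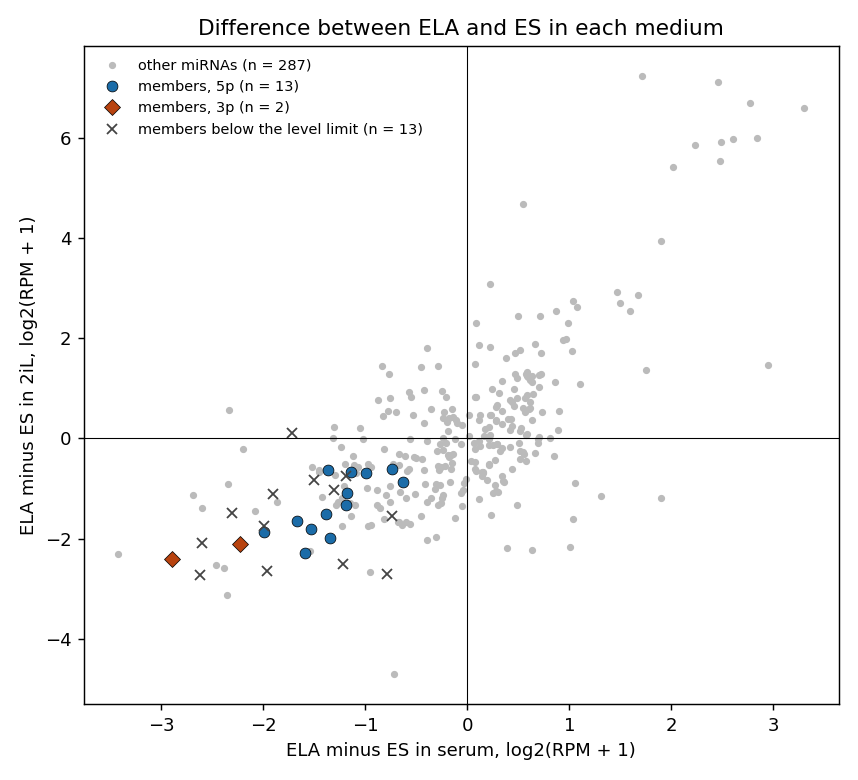
Difference ELA minus ES on log2(RPM + 1) in serum (horizontal axis) and in 2iL (vertical axis) for all miRNAs past the level limit, with the members in colour by arm and the 13 tested members below that level as crosses. All 15 coloured points lie below 0 on both axes, with both 3p points among the lowest.

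Most hairpin names gave nearly all reads on the 5p arm. Both arms were listed for 17 hairpin names, and 16 had at least 30 reads over both arms in some library. The median 5p share by hairpin name was 95.2% and 95.5% in ES cells (n = 16 hairpin names in either medium), and in ELA it was 97.4% from serum (n = 15) and 93.6% from 2iL (n = 9). Of the 16, 15 had most reads on 5p in every library in which they could be judged. miR-669c had no 3p read at all, and miR-467b had 1 in ES serum. Because the exceptions were abundant, the 5p share of all member reads was lower than these medians, 82.0% and 71.6% in ES cells and 92.7% and 84.0% in ELA.

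miR-669a was the exception in ES 2iL, where 5p took 42.3% of its reads (Wilson 95% interval 40.8% to 43.9%). In ES serum the miR-669a 5p share was 61.0% (59.7% to 62.3%), and in ELA it was 85.6% (83.4% to 87.6%) from serum and 70.8% (65.4% to 75.6%) from 2iL. The miR-467a 5p share stood at 77.6% and 64.2% in ES cells and at 91.5% and 81.0% in ELA, and that of miR-669o at 77.1% and 65.4% in ES cells and at 90.8% and 84.5% in ELA. In all 3 the share was higher in ELA than in ES from the same medium, and higher in serum than in 2iL at the same stage. Arms are paired here by name, and a 5p name may hold reads of more hairpin copies than its 3p name, as miR-669a-3 has a 3p name of its own.

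The 3p to 5p ratio could be compared for 11 of these hairpin names, beside 196 over all miRNAs. For 7 of the 11 the 3p arm had reached 10 reads in ES cells alone, which favours a lower ratio in ELA, so no count of directions is given. It was lower by at least 1 on the log2 scale in both media for 3 of the 11, miR-467a, miR-669a and miR-669o, against 4.59% of the 196. A limma fit of the ratio on stage and medium, chosen after the values were seen, gave a stage estimate of -1.81 ± 0.51 SE for miR-669a (adjusted p = 0.0444). This was 1 of 11 called, against 2.04% of the 196. The fit has 1 residual degree of freedom, and its SE is mostly a spread pooled over the 196, not that of miR-669a alone. The call was lost with pseudocounts of 0.5 RPM (-1.82, adjusted p = 0.365) and 5 RPM (-1.74, adjusted p = 0.265).

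The estimates for miR-467a, miR-669o and miR-669f were -1.42, -1.35 and -1.33, with limma adjusted p of 0.0946, 0.120 and 0.136. By reads alone, the odds of a miR-669a read being 3p were lower in ELA by 1.93 on the log2 scale in serum (exact 95% counting interval -2.20 to -1.67) and by 1.72 in 2iL (-2.11 to -1.34). For miR-467a they were lower by 1.63 (-1.91 to -1.36) and 1.25 (-1.73 to -0.80). The limma estimates of miR-467d and miR-669l were both -0.73 (adjusted p = 0.559 and 0.565). The miR-467d odds were lower by 1.55 in serum (-2.80 to -0.51) and by 0.64 in 2iL (-2.999 to 1.04). The miR-467d 3p arm is one of the 7 that reached 10 reads in ES cells alone, which favours lower odds in ELA. The estimates of miR-669e, miR-467e and miR-669p were -0.34, -0.20 and 0.10. Those of miR-467c and miR-669m were 0.49 (adjusted p = 0.748) and 0.31 (0.894), names whose 3p arms held 1 to 20 and 1 to 21 reads per library.

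**Figure D4:**
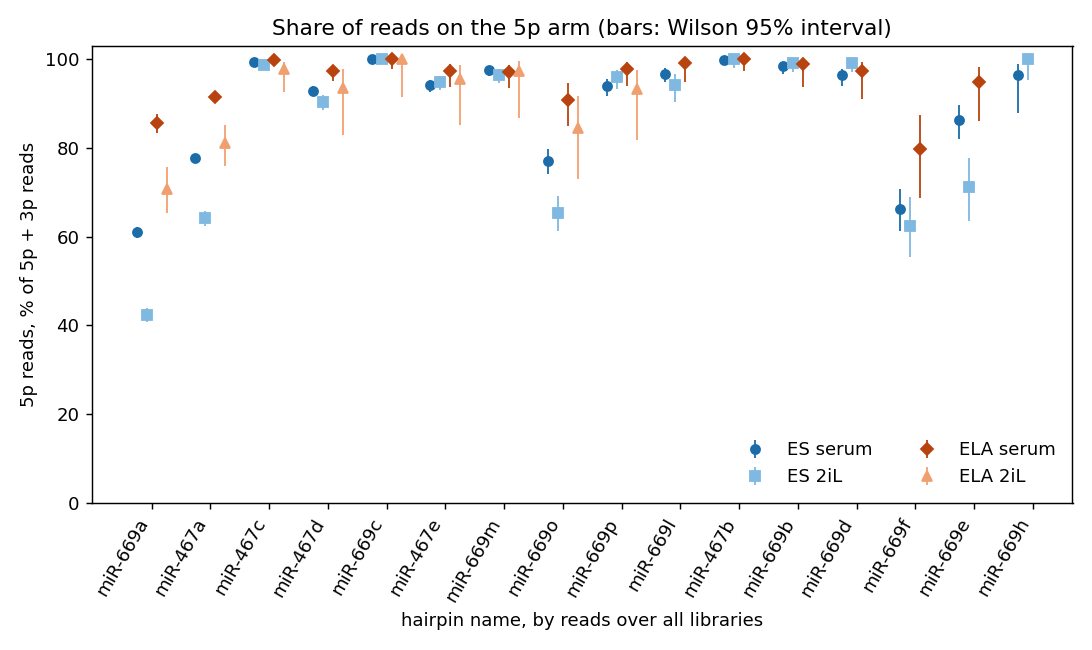
Reads on the 5p arm as a share (%) of 5p plus 3p reads for 16 hairpin names, ordered by reads, in each library with at least 30 reads over both arms, with Wilson 95% intervals as bars. miR-669a, miR-467a, miR-669o and miR-669f lie lowest in ES cells, and miR-669a reaches 42.3% in ES 2iL.

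The place of a hairpin in the intron was compared with its gap for the hairpin names with 1 annotated copy, as a description with no test. At 94.8 to 96.5 kb from the start of the Sfmbt2-001 transcript, where miR-669f, miR-669e, miR-669b, miR-669d and miR-669l lie side by side, the 5p arms differed by -1.35 to -1.18 in serum and by -1.98 to -0.75 in 2iL on log2(RPM + 1). At 133.3 to 136.8 kb, the 5p arms of miR-467e, miR-467d and miR-669c differed by -1.99 to -1.53 in serum and by -2.29 to -1.81 in 2iL. miR-467b-5p, at 109 kb among the copies of miR-467a and miR-669a, had the smallest gap of these, and miR-669o-5p, at 141.9 kb, had -1.36 in serum and -0.62 in 2iL. The gap thus did not go one way along the intron. These stretches were picked after the values were seen.

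**Figure D5:**
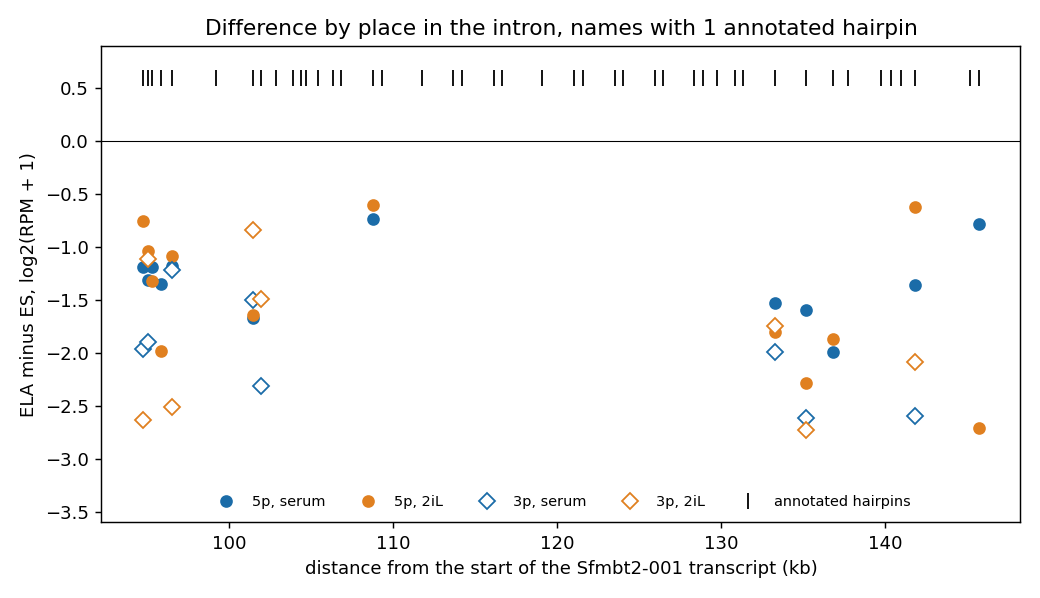
Difference ELA minus ES on log2(RPM + 1) by distance (kb) from the start of the Sfmbt2-001 transcript, for tested members with 1 annotated hairpin, filled for 5p and open for 3p arms, in serum and 2iL. Ticks mark the 44 annotated hairpins. The 12 filled 5p members lie between -1.99 and -0.73 in serum and between -2.71 and -0.60 in 2iL, and 6 of the 8 open 3p members had passed the read minimum through ES cells alone.

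Levels were higher in 2iL than in serum, which depended in part on the scaling. On RPM, all 15 members were higher in ES 2iL than in ES serum (62.9% of all miRNAs past the level limit) and all 15 in ELA 2iL than in ELA serum (65.6%), whereas under edgeR's TMM scaling 10 and 12 of the 15 were, and under DESeq2's size factors 14 and 11. The median over all these miRNAs was itself 0.44 higher in ES and 0.37 higher in ELA on RPM. Relative to that, the members' median was 0.27 higher in ES and 0.41 higher in ELA, and 12 of the 15 lay above it at either stage. A difference of at least 1 was passed by 3 of the 15 in ES (30.8% of all) and by 4 in ELA (22.2%), shares below or near that of other miRNAs. No member passed an adjusted p of 0.05 for medium by limma (0% of the 599) or by edgeR (10.7%), with 7 and 2 of 28 past an unadjusted p of 0.05 (29.4% and 25.7% of the 599). DESeq2 called miR-669a-3p (adjusted p = 0.0495), 1 of 28 against 13.4%.

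The summed level of the 3p members led here as well. Their sum was 2.72 times higher in 2iL in ES and 3.53 times higher in ELA, against 1.50 and 1.45 times for the 5p sum. miR-669a-3p was 3.01 times higher in ES 2iL than in ES serum and 4.28 times higher in ELA 2iL than in ELA serum, and miR-467a-3p was 2.47 and 2.73 times higher. By contrast miR-467a-5p was 1.27 and 1.08 times higher on RPM, and it was lower in 2iL under TMM and DESeq2 scaling (-0.27 and -0.21). In the limma fit of the arm ratio, 1 of the 11 hairpin names was called for medium, miR-669e (1.45 ± 0.51 SE, adjusted p = 0.0299), beside 23% of the 196. The call was lost with pseudocounts of 0.5 RPM (1.68, adjusted p = 0.0761) and 5 RPM (0.73, adjusted p = 0.177). Its 3p arm held 3 and 4 reads in the ELA libraries, and the SE is again mostly the pooled spread. Over the 11, the medium estimate was below 0 for 4, miR-467e, miR-669f, miR-669l and miR-669m.

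The stage and medium differences share libraries and are given side by side only. Clusters known in these cells served as a frame for the stage difference, each by the median over its miRNAs past the level limit. The miR-466 and miR-297 miRNAs, many of which lie in the same intron, had medians of -1.20 in serum and -0.94 in 2iL over 5 miRNAs, with 5 and 2 of them past a difference of 1. For the miR-290 to miR-295 cluster the medians were -0.89 and -0.45 over 10 miRNAs, with 4 and 2 past it. For the miR-302 and miR-367 cluster they were 2.54 and 5.99 over 8 miRNAs, all higher in ELA. The miR-467 and miR-669 medians of -1.36 and -1.52 were the lowest of these 4 sets, a difference that was not tested. By arm, the miR-466 and miR-297 medians were -1.19 and -0.70 over 3 5p miRNAs and -2.39 and -1.29 over 2 3p miRNAs. Those of miR-467 and miR-669 were -1.35 and -1.32 over 13 5p and -2.56 and -2.26 over 2 3p members. The wider 3p gap was thus seen in both sets.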

How the data were processed

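The authors sequenced small RNA (TruSeq), removed adaptors with Trimmomatic after CASAVA 1.8, mapped with Bowtie to mm9, counted mature miRNAs of miRBase release 20 with featureCounts, per the labels and methods, and deposited RPM values in 1 table. Other tool versions, and the handling of reads with several matches, are not given in the sources used here. All 4 columns were used. Groups came from titles and source names, since the description field exchanges ES 2iL and ELA serum. Every value was a whole multiple of 1 read (100%, tolerance 0.01 reads), which gave back the reads.

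Differences were taken on log2(RPM + 1), which understates those of low miRNAs. The test was limma 3.58.1 (R 4.3.3) fitted to the 4 libraries with a term for stage and another for medium, on miRNAs reaching 10 reads in 2 or more libraries. edgeR 4.0.16 and DESeq2 1.42.0 were run on the recovered reads, and all were tested on simulated data. Members with a mean of at least 5 were named. Of other tested members, those going against the members' median in both media (0 found) and the other arms of named members could be named, whereas miR-669e and miR-669f were named after values were seen. The limits of 5 and 1 are the sizes the study used for miRNAs lower in ELA, applied here to log2(RPM + 1) averaged over the 4 libraries, in both directions and also to medium. The members and lists were chosen with earlier results of these data known. Other alternatives were scaling, filters and pseudocounts. Hairpin coordinates came from GENCODE (mm9) and mature sequences from RefSeq (GRCm38.p6).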

Additional observations from a re-analysis of the deposited data

How the results depend on the processing

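The direction of the stage difference held for all 15 members with a mean of at least 5 under every alternative run, while the number of calls did not hold. With a pseudocount of 0.5 RPM limma called 0 members for stage (0% of all tested). It called 0 as well with the filter on a mean of at least 5 (0%). It called 1 with a pseudocount of 5 RPM (1.50%), 2 under TMM (4.67%) and 8 with totals without the 5 most abundant miRNAs (11.7%). Under DESeq2's size factors it called 10 (14.02%), and with no filter on low values 14 of 37 (8.24%). edgeR's quasi-likelihood test called 4 (6.51% of all tested, in either direction). With its other variance option (legacy = FALSE, added after seeing the data) it called 0 (0%). DESeq2's Wald test called 6 (8.35%, in either direction). For medium, limma called 4 of 37 with no filter (10.8% of all) and 1 of 28 with totals without the 5 most abundant miRNAs (15.7%), and DESeq2 called 1 (13.4%). The cause was not tested.

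With all 28 members of at least 10 reads in 2 libraries, 8 of which reached that in ES cells alone, the difference of 1 was passed by 23 for stage in serum (17.2% of all tested), 20 for stage in 2iL (29.9%), 10 for medium in ES (30.7%) and 11 for medium in ELA (23.9%), a set with more members. For medium it was passed by 1 of 15 in ES (15.2% of all) and 2 in ELA (11.6%) under TMM, and by 1 at each stage under DESeq2's size factors (18.9% and 10.6%). Under TMM, 8 of 15 were higher in 2iL at both stages (34.8% of all), against 15 on RPM (52.0%). The medium estimate turned to -0.061 (miR-467c-5p), -0.27 (miR-467a-5p), -0.0011 (miR-467b-5p) and -0.074 (miR-467d-5p) under TMM, and to -0.21 (miR-467a-5p) and -0.012 (miR-467d-5p) under DESeq2's size factors. For miR-467a-5p it was -0.19 by edgeR under either option and -0.15 by DESeq2.

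The members' median stage difference in serum was -1.17 under DESeq2's size factors. In 2iL it was -1.35 under TMM, -1.40 under DESeq2's size factors and -1.28 with totals without the 5 most abundant miRNAs, and the SD over 28 members was 0.76. Relative to the median of all miRNAs past the level limit, it was between -1.38 and -1.35 in every scaling. A scaling moves both medians nearly alike, so this had to hold and is no check of the difference. Without the 5 most abundant miRNAs in the total, the members' share was 0.623% and 0.882% in ES cells (serum and 2iL) and 0.234% and 0.385% in ELA, and without miR-467a-5p it was 0.233%, 0.424%, 0.0783% and 0.144%. The 5p share of summed reads was 82.0%, 71.6%, 92.7% and 84.0% in that order.

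For the arm ratio, pseudocounts of 0.5 and 5 RPM left 0 of 11 calls for stage (0% of the 196 hairpin names) and 0 for medium (9.69% and 6.63%). At least 30 reads on each arm gave 1 of 7 for stage (2.61% of 153) and 2 of 7 for medium (26.1%). With 5 RPM the stage estimate turned to 0.51 (miR-467e), 0.16 (miR-669e) and 0.36 (miR-669l) and the medium estimate to -0.40 (miR-669p). With 0.5 RPM the stage estimate turned to -0.074 (miR-669p) and the medium estimates to 0.071 (miR-467e) and 0.058 (miR-669m). Counting names with an identical mature sequence or seed as 1 was not run, since the sequences of the expressed members were not used here. The fit sets ELA against ES within each medium, and the labels give no replicate numbers for any other pairing. The depth of ELA 2iL, where 1 read was 1.70 RPM, limits the low 3p arms.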
